A study of Mus musculus with 29 samples.

Results

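Motile cilia are hair-like organelles that beat to move fluid over an epithelium or to drive a sperm cell. Their shaft, the axoneme, carries outer and inner dynein arms, the motors that bend it, and radial spokes and a central pair of microtubules that regulate the motors. In cells with many cilia, the regulators Mcidas and Gmnc act early, the cyclin-like protein Ccno takes part in making the basal bodies, and the forkhead transcription factor Foxj1 with factors of the Rfx family turns on axonemal genes. The peritoneum is lined by mesothelium, which is not known as a multiciliated epithelium, whereas the primary cilium, which does not beat, is found on most cell types.

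The data described here are the levels of 9 of these genes (Foxj1, Mcidas, Ccno, Ttc25, Dnah5, Rsph1, Nme5, Cfap43 and Tekt1), taken by symbol from a count table of 24421 genes. They were chosen because Foxj1, Cfap43, Ttc25 and Nme5 differed between groups in these same libraries. The values of those 4 genes are therefore given as a description with no test, and tests are given only for the other members and for cilia genes outside the 9.

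The study injected YTN16 mouse gastric cancer cells into the peritoneal cavity of female C57BL/6J mice, 5 to 6 weeks old, and sequenced the RNA of the stripped peritoneum, with tumor nodules where a mouse had them, 1 library per mouse, 29 in all. At 3wk (day 21) there were 5 untreated mice and 5 mice given anti-PD1 (clone RMP1-14) with anti-CTLA4 (clone 9H10), called dual ICI. At 5wk (day 35) there were 5 untreated mice, 5 given anti-PD1, 4 given anti-CTLA4, and 5 given dual ICI. The dual ICI mice numbered 1 and 5 in the study were uncured and those numbered 2, 3 and 4 were cured, and the library numbers were read as these mouse numbers. All groups carried the same injected cell line, untreated mice received PBS, and no group without tumor cells was analysed here. The study injected antibody or PBS into the 5wk mice on the days used for the 3wk mice, and again from day 21 on. The 3wk and 5wk libraries also carry library codes from separate number ranges. Time, the number of injections and any difference in library handling therefore cannot be told apart.

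Every library is labelled as tumor tissue, but libraries differed widely in how much gastric epithelium they held, and in bulk tissue fewer cells of a type and less RNA per cell cannot be told apart. The summed level of 14 gastric and epithelial genes was 1156 to 3927 CPM in untreated 5wk mice, where CPM is a gene's count divided by the total count of its library, after TMM scaling, times 1000000. It was 22.2 to 98.9 CPM in the 3 cured mice, in which Tff1, Gkn1, Gkn2 and Muc5ac were at 0 counts. The library of anti-PD1 mouse 5, at 63.9 CPM, lay in the range of the cured mice and apart from the other 4 anti-PD1 libraries. The anti-PD1 fold changes of members that are printed below are therefore given with and without it, and not every member has one printed. The study describes a single anti-PD1 mouse as cured, so that group mixes cured and uncured mice, and which library came from the cured mouse is not given in the sources used here. Summed skeletal muscle genes went the other way, from 42158 to 222343 CPM in untreated 5wk mice and from 246965 to 276502 CPM in cured mice. Libraries held 25989217 to 31219650 assigned reads.

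Of the 9 members, 4 had more than 3 counts in every library (Rsph1, Nme5, Cfap43 and Tekt1), Ttc25 did in 28 libraries and Foxj1 in 26. The other 3 were at or near 0 in many libraries. Per kilobase of exon, the mean level over 29 libraries was 2.03 CPM for Foxj1, 1.62 for Rsph1, 0.972 for Tekt1, 0.690 for Nme5, 0.267 for Cfap43 and 0.121 for Ttc25. It was 0.0598 for Ccno and 0.00383 for Dnah5, and Mcidas was at 0 counts in all 29. This order differed between groups: in the cured mice Rsph1 had 5.14 and Foxj1 0.0376 CPM per kilobase.

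Promoter sequence was available in the RefSeq table (GRCm38.p6, 250 bases before to 50 after each start) for 5 members, Cfap43, Tekt1, Ccno, Mcidas and Dnah5. RFX factors bind X-box elements, for which the letters GTTGCC were searched on both strands (GGCAAC on the other), and forkhead factors such as Foxj1 bind TGTTTAC-like sites (GTAAACA on the other). The X-box letters were present in 51.0% of 100 promoters of the motile cilia genes listed here and in 12.51% of all 32851 promoters. The forkhead letters were present in 7.0% and 3.65% of them. Among the members, Ccno, Mcidas and 1 of the 2 promoters of Tekt1 held the X-box letters, and Cfap43 the forkhead letters. The stretch of Tekt1 is shown because it held the X-box letters on each strand, and that of Cfap43 because it was the only member promoter with the forkhead letters (capitals mark the matches).
Tekt1, minus strand, chr11:72361883-72361982: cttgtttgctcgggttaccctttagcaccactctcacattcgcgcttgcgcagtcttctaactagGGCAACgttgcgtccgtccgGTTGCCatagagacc
Cfap43, minus strand, chr19:47837383-47837482: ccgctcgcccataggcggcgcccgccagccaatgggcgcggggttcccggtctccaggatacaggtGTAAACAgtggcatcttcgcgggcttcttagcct
A match describes these letters only. As a description, Spearman's rho with Foxj1 over 29 libraries was -0.31 for Tekt1 and -0.18 for Cfap43. Libraries differ in tissue content, so these values cannot bear on regulation by Foxj1 or RFX factors, which was not tested.

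**Figure D1:**
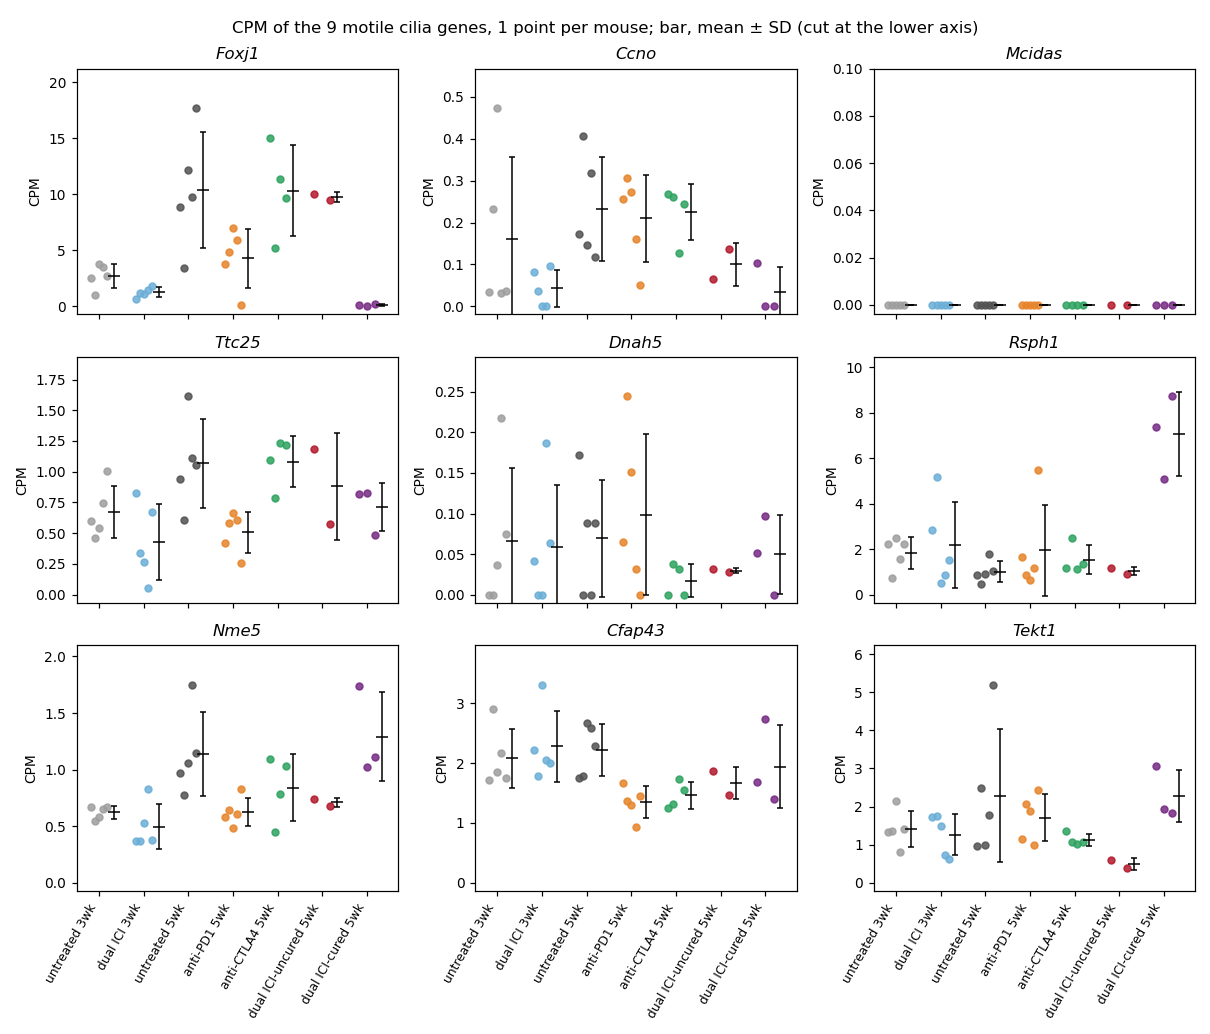
CPM (vertical axes, scaled per gene) of the 9 motile cilia genes in 29 libraries, 1 point per mouse in 7 groups, with the mean ± SD beside each group. Foxj1 lay below 0.2 CPM in all 3 cured mice, Rsph1 had its highest group mean there, and Mcidas was at 0 in every mouse.

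Foxj1 (chr11:116330704-116335399, minus strand, GRCm38) had 309, 85, 414, 245 and 602 counts in untreated 5wk mice 1 to 5, which is 8.84, 3.46, 12.1, 9.75 and 17.7 CPM. The 4 anti-CTLA4 mice had 15.0, 5.24, 11.3 and 9.63 CPM and the 2 uncured dual ICI mice 10.0 and 9.46 CPM, within the range of the untreated mice. The 3 cured mice had 2, 0 and 4 counts (0.102, 0 and 0.194 CPM). No cured mouse reached the lowest mouse of any other group except anti-PD1 mouse 5, which had 2 counts.

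The fitted log2 fold change of Foxj1 between cured and untreated 5wk mice was -6.63 ± 0.77 (SE, 3 against 5 mice), in a comparison in which 44.7% of all tested genes passed the threshold of an adjusted p under 0.05 in edgeR's quasi-likelihood test. It was 6.53 ± 0.46 for uncured minus cured mice and 6.63 ± 0.65 for anti-CTLA4 minus cured mice. These comparisons share the cured mice. Because only 6 Foxj1 reads were counted in the cured mice, the size of the change rests on few counts, and it ran from -7.55 to -6.06 when 1 mouse at a time was left out of the first comparison.

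The 5 anti-PD1 mice had 3.76, 4.86, 6.95, 5.88 and 0.103 CPM of Foxj1. The first 4 lay within the range of the untreated 5wk mice but below 4 of those 5. Against untreated mice the log2 fold change was -1.26 ± 0.68 with all 5 mice and -0.96 without mouse 5. With all 5, no gene of 15640 tested passed the threshold (0% called, 205 at an unadjusted p under 0.05, and 0 called by DESeq2). The median of the epithelial marker Epcam was 354 CPM with anti-PD1 and 374 CPM in untreated mice.

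In untreated mice the level of Foxj1 was lower at 3wk than at 5wk, with a slight overlap. Untreated 3wk mice had 2.52, 1.05, 3.78, 3.54 and 2.75 CPM, and dual ICI 3wk mice had 0.658, 1.23, 1.09, 1.42 and 1.85 CPM. Among the untreated mice, 4 of 5 lay above every dual ICI mouse, and the untreated mouse 2 lay within their range. The log2 fold change of dual ICI minus untreated at 3wk was -1.11 ± 0.35 (0.574% of genes called), and that of untreated 5wk minus untreated 3wk was 1.93 ± 0.41 (10.8% of genes called).

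Over 29 libraries the Spearman's rho of Foxj1 was 0.83 with Epcam, 0.81 with the mesothelial gene Msln and -0.79 with the muscle actin Acta1. Without the 3 cured mice and anti-PD1 mouse 5 these were 0.74, 0.70 and -0.68 over 25 libraries, and the part of these tissues in the level of Foxj1 was not tested. At 3wk, Epcam ranged from 99.95 to 305 CPM in untreated and from 123 to 392 CPM in dual ICI 3wk mice, so that the groups overlapped. Per 1000 Epcam reads, untreated 3wk mice had 10.5 to 18.7 Foxj1 reads and dual ICI 3wk mice 3.61 to 10.0, with no overlap. At 5wk the range was 19.6 to 41.3 in untreated mice, 20.7 to 30.6 with anti-CTLA4 and 19.5 to 20.4 in uncured dual ICI mice. In anti-PD1 mice 1 to 4 it was 10.6, 12.7, 14.1 and 17.4, below every untreated 5wk mouse, and mouse 5 had 24.7 from 2 Foxj1 reads. The cured mice had 19.0, 0 and 571, from 2, 0 and 4 Foxj1 reads over 105, 16 and 7 Epcam reads. These are too few reads for the ratio to be read in cured mice. This ratio was chosen after the values were seen and was not tested. With Cdh1 in place of Epcam, untreated 3wk mice had 9.92 to 18.4 and dual ICI 3wk mice 3.26 to 11.4 Foxj1 reads per 1000, which overlapped slightly. At 5wk the uncured mice had 19.3 to 24.3 per 1000 Cdh1 reads, below the 25.7 to 43.7 of untreated mice. Per 1000 reads of the keratin Krt8 they had 6.36 to 8.67, which overlapped the 7.41 to 22.8 of untreated mice.

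**Figure D2:**
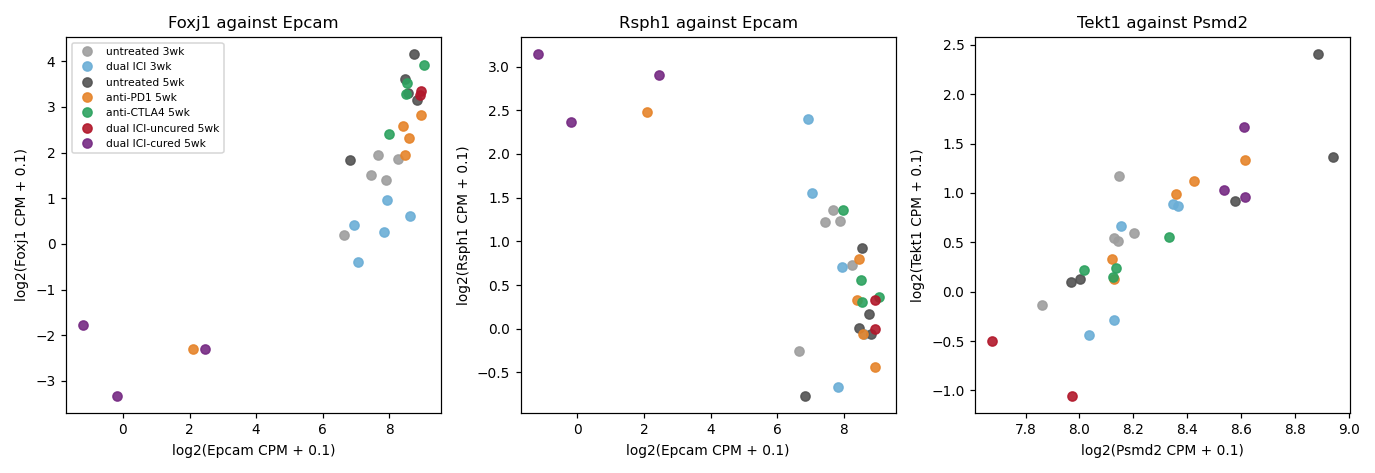
Each point is a library, coloured by group, on log2(CPM + 0.1) axes: Foxj1 against Epcam, Rsph1 against Epcam, and Tekt1 against Psmd2. The 3 cured mice and anti-PD1 mouse 5 sit at the left of the Epcam panels, low for Foxj1 and high for Rsph1.

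Mcidas (chr13:112993845-113000394, plus strand), an early regulator of the multiciliated cell state, was at 0 counts in all 29 libraries, where a count of 0 allows up to 3 reads, or 0.0961 to 0.115 CPM (before TMM scaling) in a library. Gmnc, the other early regulator, had 0 to 6 counts, above 3 counts in 1 library. Ccno, the neighbour of Mcidas (chr13:112987802-112990777, plus strand), was detected with 0 to 13 counts, above 3 counts in 16 libraries. The dual ICI-cured mice had 2, 0 and 0 counts of Ccno, the uncured mice 2 and 5, and the untreated 5wk mice 6, 10, 5, 8 and 4. The groups were too thinly counted for Ccno to pass the filter on low counts in any of the 10 comparisons, and neighbouring groups overlapped in the order of their medians.

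Of the other genes that regulate ciliogenesis, those at the highest level were Rfx2 (mean 13.1 CPM), Myb (13.0 CPM) and Rfx3 (7.74 CPM), which other cell types also use. Myb fell in cured against untreated 5wk mice, with a log2 fold change of -3.55 ± 0.45 (edgeR adjusted p = 3.6e-04, 26.7% of all tested genes called lower and 18% higher). Rfx2 was 0.03 ± 0.21 (adjusted p = 0.90) and Rfx3 -0.67 ± 0.26 (adjusted p = 0.060). These 3 genes were picked from their levels after the values were seen.

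Ttc25 (chr11:100545607-100572568, plus strand) encodes a protein of the complex that docks outer dynein arms on the axoneme. It had 2 to 55 counts per library. Untreated 5wk mice had 0.944, 0.610, 1.61, 1.11 and 1.06 CPM, and anti-PD1 mice 0.418, 0.580, 0.667, 0.611 and 0.258 CPM. The anti-PD1 mice lay below 4 of the 5 untreated mice and overlapped the lowest one, with a log2 fold change of -1.05 ± 0.33 (-0.92 without anti-PD1 mouse 5). The anti-CTLA4 mice, at 1.10, 0.785, 1.23 and 1.22 CPM, lay within the untreated range and above all 5 anti-PD1 mice. The cured mice, at 0.819, 0.828 and 0.484 CPM, overlapped the untreated mice (log2 fold change -0.57 ± 0.39), so that Ttc25 was retained where Foxj1 was nearly absent. At 3wk the dual ICI mice had 0.823, 0.336, 0.265, 0.0535 and 0.669 CPM against 0.465 to 1.00 CPM in untreated mice (log2 fold change -0.67 ± 0.52).

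Dnah5 (chr15:28203752-28472052, plus strand), a heavy chain motor of the outer arm and by exon length the longest member, had 0 to 8 counts and more than 3 in only 5 of 29 libraries. It was at 0 in 10 libraries, and all 7 groups overlapped. It was not tested in any comparison because of its low counts.

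Rsph1 (chr17:31255019-31277383, minus strand), a component of the radial spoke head, moved opposite to Foxj1. Untreated 5wk mice had 0.859, 0.488, 0.909, 1.79 and 1.03 CPM. The 3 cured mice had 7.37, 5.07 and 8.72 CPM, all above every untreated, anti-CTLA4 (1.19, 2.47, 1.14 and 1.37 CPM) and uncured mouse (1.16 and 0.900 CPM). Rsph1 rose in cured against untreated mice with a log2 fold change of 2.82 ± 0.36 (edgeR adjusted p = 3.8e-04, 18% of all tested genes called higher and 26.7% lower). It was lower in uncured than in cured mice (-2.81 ± 0.31, adjusted p = 6.3e-05, 33.1% of genes called lower and 36.9% higher) and lower with anti-CTLA4 than in cured mice (-2.21 ± 0.32, adjusted p = 7.4e-04, 28.8% called lower and 33.6% higher). These calls held in every fit that left out 1 mouse.

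The 5 anti-PD1 mice had 1.64, 0.855, 0.637, 1.16 and 5.47 CPM of Rsph1, and mouse 5 alone lay in the range of the cured mice. Against untreated 5wk mice the log2 fold change was 0.93 ± 0.59 with mouse 5 (0% of genes called) and 0.07 without mouse 5, and neither passed the threshold. With mouse 5, the log2 fold change of anti-PD1 minus cured mice was -1.88 ± 0.66 (adjusted p = 0.070, 18.8% of genes called). Without it, the value was -2.72 and passed the threshold (adjusted p = 8.6e-05). At 3wk, dual ICI mouse 2 had 5.18 CPM and the other 4 had 2.84, 0.529, 0.856 and 1.53 CPM, which overlapped the 0.736 to 2.47 CPM of untreated mice (log2 fold change 0.23 ± 0.55, adjusted p = 0.95). The direction rested on mouse 2: without it the value was -0.37 (adjusted p = 0.86), and with the replicate block it was -0.11 (adjusted p = 0.98).

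The markers that moved with Rsph1 are given here, and their part in the result was not tested. Over 29 libraries its Spearman's rho was 0.61 with Acta1 and -0.55 with Epcam. Without the 3 cured mice and anti-PD1 mouse 5 these were 0.41 and -0.31 over 25 libraries. Acta1 was 52242 to 66933 CPM in cured mice and 7329 to 41121 CPM in untreated 5wk mice.

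Nme5 (chr18:34562634-34579115, minus strand), a protein of the radial spoke with a nucleoside diphosphate kinase fold, had 9 to 44 counts per library. Untreated mice had 0.666, 0.542, 0.582, 0.652 and 0.668 CPM at 3wk and 0.973, 0.773, 1.06, 1.75 and 1.15 CPM at 5wk, with no overlap (log2 fold change 0.87 ± 0.26). The cured mice, at 1.74, 1.02 and 1.11 CPM, lay within the untreated 5wk range. The anti-PD1 mice, at 0.579, 0.641, 0.485, 0.611 and 0.826 CPM, lay below all 3 cured mice (log2 fold change -1.05 ± 0.30, and -1.15 without mouse 5) and below untreated mice except where mouse 5 overlapped the lowest. The uncured mice, at 0.738 and 0.682 CPM, lay below both the cured and the untreated 5wk mice.

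Cfap43 (chr19:47736857-47919287, minus strand), an axonemal protein needed for the beating of sperm and airway cilia, had fitted log2 fold changes between -0.72 and 0.14 with all mice. It ranged from 1.75 to 2.67 CPM in untreated and from 0.932 to 1.67 CPM in anti-PD1 5wk mice, with no overlap (log2 fold change -0.72 ± 0.23, and -0.76 without anti-PD1 mouse 5). With anti-CTLA4 it was 1.25 to 1.74 CPM, also below every untreated 5wk mouse (-0.62 ± 0.24). The cured mice spanned 1.40 to 2.73 CPM and overlapped both. Of its 7059 exon bases, 164 lie in exons of Itprip and 82 in the miRNA gene Gm22240 on the same strand, so a small share of reads could be shared.

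Tekt1 (chr11:72344722-72362442, minus strand), a tektin filament protein of the doublet microtubule wall, differed between treated groups in an order unlike that of Foxj1 or Rsph1. The uncured mice had 0.610 and 0.382 CPM, below every mouse of the other 6 groups. The cured mice had 3.07, 1.95 and 1.84 CPM and the anti-CTLA4 mice 1.36, 1.08, 1.01 and 1.06 CPM. Tekt1 was lower in uncured than in cured mice (log2 fold change -2.23 ± 0.41, edgeR adjusted p = 0.0011, 33.1% of genes called lower and 36.9% higher). It was also lower with anti-CTLA4 than in cured mice (-1.02 ± 0.27, adjusted p = 0.011, 28.8% of genes called lower and 33.6% higher). The second call was lost without cured mouse 2, the highest of the 3 (-0.76, adjusted p = 0.051).

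Untreated 5wk mice spread widely in Tekt1, with 0.973, 2.48, 0.997, 1.79 and 5.20 CPM. Against them, the cured mice did not pass the threshold (log2 fold change 0.01 ± 0.55, adjusted p = 0.99), nor did the uncured mice (-2.22 ± 0.77, adjusted p = 0.73, 0% of genes called, 787 at an unadjusted p under 0.05, and 17 called by DESeq2). Without untreated mouse 5 the first value was 0.57 (adjusted p = 0.31). The difference of uncured from untreated mice at 5wk, minus that of dual ICI from untreated mice at 3wk, was -2.05 ± 0.80 for Tekt1 (adjusted p = 0.71). For Rsph1 it was -0.22 ± 0.86 (adjusted p = 0.96). In this comparison 0% of genes were called in edgeR, 1050 of 16542 had an unadjusted p under 0.05, and DESeq2 called 1. The uncured mice were selected by outcome and the 3wk mice were not, so time, outcome and the number of injections cannot be told apart here.

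**Figure D3:**
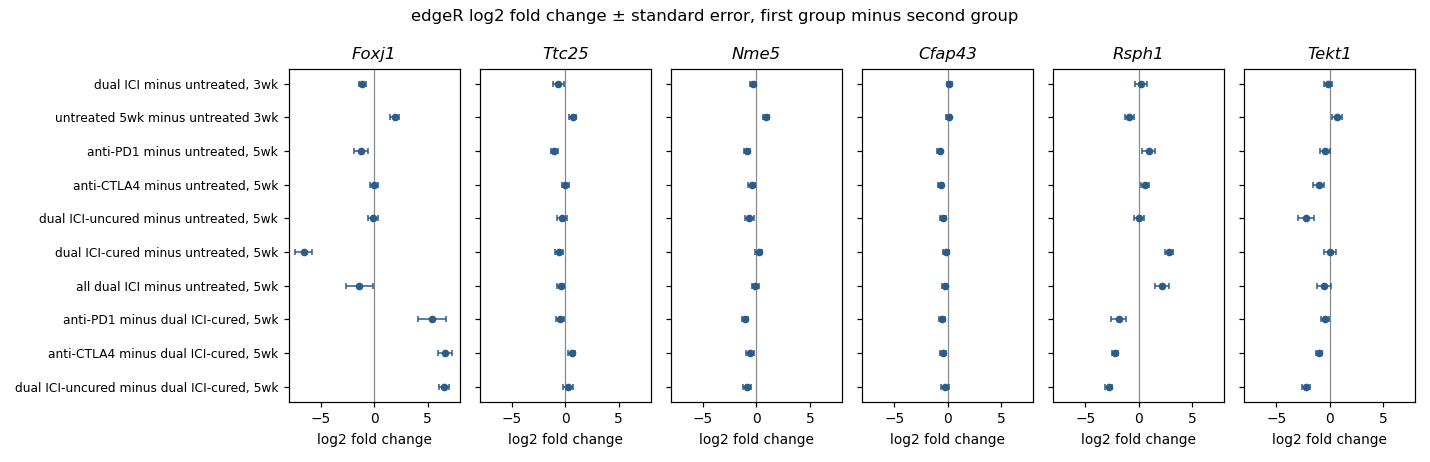
edgeR log2 fold changes (horizontal axes, bars are ± 1 standard error) of the 6 members that passed the filter on low counts, in 10 comparisons. Foxj1 and Rsph1 point opposite ways in the comparisons with cured mice, where Ttc25, Nme5 and Cfap43 stay within about 1 log2 unit of 0.

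In the order of group medians, Foxj1 ran from anti-CTLA4, uncured and untreated 5wk mice through anti-PD1 and both 3wk groups to the cured mice, and the only neighbours without overlap were dual ICI 3wk and cured mice. For Rsph1 the cured mice came first and were separated from the next group, untreated 3wk, while all later neighbours overlapped. They were not separated from every group: dual ICI 3wk mouse 2 (5.18 CPM) and anti-PD1 mouse 5 (5.47 CPM) lay within the cured range of 5.07 to 8.72 CPM. For Tekt1 only the uncured mice, at the bottom, were separated from their neighbour, anti-CTLA4. All neighbours of Ttc25, Ccno, Dnah5 and Cfap43 overlapped. For Nme5 the 2 uncured mice lay just above untreated 3wk, without overlap.

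The members did not move as 1 group across libraries. Over 29 libraries, Spearman's rho with Foxj1 was 0.61 for Ttc25, 0.53 for Ccno, 0.26 for Nme5 and -0.44 for Rsph1. Without the cured mice and anti-PD1 mouse 5, the rho of Nme5 with Foxj1 over 25 libraries was 0.71 and that of Ttc25 was 0.71, whereas that of Rsph1 was -0.13 and that of Tekt1 -0.09. Libraries share tissue composition, so these values are descriptions.

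Genes most like the mean log2 CPM of the 9 members over 29 libraries, with the members left out, were Defb1 (rho 0.88), Guca2a (0.87), Dlk2 (0.86), Plch2 (0.86), Hexdc (0.85), Rnd2, Ufsp1, Xpc, Sycn (0.84 each) and Krt17 (0.84). None of these 10 is in the cilia lists. For single members, ranked after the values were seen, Foxj1 was most like Rapgefl1, Tmem184a and Pdzk1ip1 (0.96 each), and among the first 10 were the keratin Krt4 and the basement membrane collagen Col17a1. Rsph1 was most like Gpt, Sbk3 and Tsfm (0.80 each), Tekt1 like the proteasome subunit Psmd2 (0.92) and the lysosomal glucosidase Gaa (0.91), and Ttc25 like Pdzd3 (0.77), with Trp73, a regulator of multiciliated cells, at 0.71.

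Outside the members, 95 genes of motile cilia were listed by role, from regulators to dynein assembly factors, of which 89 were in the table and the other 6 were not analysed here. They were thinly expressed: 39 of 89 had a mean of at least 1 CPM, 11 had no more than 3 counts in any library, and the median of their mean levels was 0.478 CPM. All 25 listed genes of the primary cilium and its transport system, by contrast, had a mean above 1 CPM. The highest 5 of the 89 were Mlf1 (151 CPM), Dnaaf5 (42.7), Cfap298 (21.8), Rsph3b (18.5) and Rsph3a (16.7). Mlf1 is also expressed in muscle, and reads of Rsph3a and Rsph3b, which are near-identical copies, may have been split between them.

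In cured against untreated 5wk mice, 52 of the 89 were tested, 20 were lower, 3 were higher and 29 did not pass the test. This share, 44.2%, is close to the 44.7% of all genes. By direction, 26.7% of all genes were lower and 18% higher, so the tested cilia genes leaned more to lower than all genes did. The filter on low counts kept a gene with enough reads in either group. A cilia gene near 0 in cured mice, such as Cfap44 (mean 0.0162 CPM, against 2.39 CPM in untreated mice), therefore entered through the untreated mice and could only be called lower. The part of the filter in this lean and in the median below was not tested. The median log2 fold change of the 52 was -0.76, against -0.05 over all tested genes, and was the same with Ccdc153, at 0 in the cured mice, set to its floor. The 3 lowest were Cfap44, an axonemal protein that works with Cfap43 (adjusted p = 0.0031), Ccdc153 (adjusted p = 0.013) and Fam183b (adjusted p = 0.0039). Cfap44 had 397 reads in the untreated and 1 in the cured mice, a ratio of 232 per assigned read (exact 95% interval 41.5 to 9200, counting error only), and Fam183b had 110 and 1, a ratio of 64.4 (11.3 to 2566). Ccdc153 had 68 and 0 reads, at least 13.3-fold lower by a floor of 3 counts over the group. Thus Cfap44 was close to 0 in the mice in which its partner Cfap43 stayed at 1.40 to 2.73 CPM.

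The 3 genes that rose in cured mice were Mlf1 (log2 fold change 2.10 ± 0.65, adjusted p = 0.027), Dnal1, a light chain of the outer arm (0.79 ± 0.27, adjusted p = 0.038), and Rsph3a (0.50 ± 0.18, adjusted p = 0.046). Each of these 3 calls was lost when any 1 of the cured mice was left out, unlike that of Rsph1. By role, all 3 tested genes of the outer arm passed (2 lower), 5 of 7 other ciliated cell genes (4 lower), 3 of 4 of the nexin link (all lower), 5 of 11 of the spoke and central pair (4 lower), 2 of 6 of the inner arm, 2 of 8 of the doublet wall and 2 of 8 of dynein assembly (all lower), and 1 of 5 regulators, Myb. These sets are small and 44.7% of all genes were called, so the counts set no role apart. In the primary cilium list, 6 of 25 were lower and 1 higher, with a median of -0.11. Of all genes, 26.7% were lower and 18% higher.

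**Figure D4:**
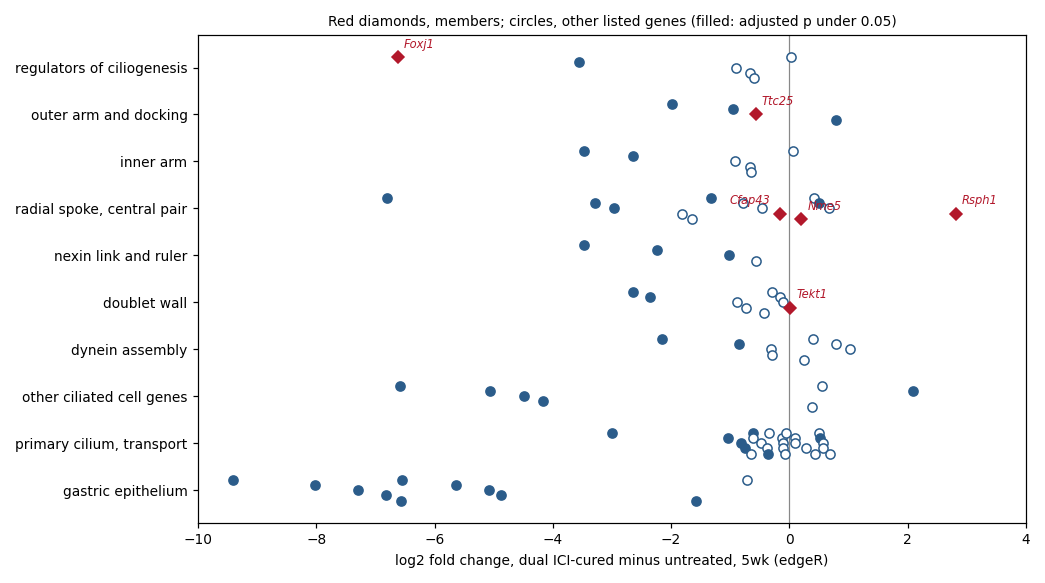
log2 fold change of dual ICI-cured minus untreated 5wk mice (horizontal axis) for tested genes of the cilia lists and of gastric epithelium, 1 row per list; red diamonds are members and filled circles other genes with an adjusted p under 0.05. Rsph1 lies farthest to the right and Foxj1 lies among the epithelial genes on the left.

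The other comparisons with the cured mice share those 3 libraries and the limit of the filter on low counts. In uncured minus cured mice, 24 of 51 tested cilia genes were higher and 7 lower (60.8%). Of all genes 70% were called, 36.9% higher and 33.1% lower. In anti-CTLA4 minus cured mice, 20 of 49 cilia genes were higher and 7 lower (55.1%). Of all genes 62.5% were called, 33.6% higher and 28.8% lower. In anti-PD1 minus cured mice, 14 of 50 cilia genes were higher (28.0%), with 18.8% of all genes called and 16.3% called higher. Cfap44 and Tmem212 were among the 3 highest in each. Those with the largest lower values were Mlf1, Cdhr3 and Dyx1c1 in uncured mice, and Mlf1, Zmynd10 and Dyx1c1 with anti-CTLA4. Mlf1, like Rsph1, was lower in uncured than in cured mice, by -3.25 ± 0.17 on the log2 scale (adjusted p = 1.0e-06).

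The anti-PD1 count rested on single mice. Without anti-PD1 mouse 5 it was 26 of the tested cilia genes, and leaving out any other mouse of the 2 groups gave 0 in edgeR, with 18 to 20 at an unadjusted p under 0.05. With all mice DESeq2 called 21 cilia genes, and 5920 of 17434 genes in all. The share of all genes called in the fits without 1 mouse is not given here. The shifts therefore cannot be read as particular to cilia genes.

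With time in untreated mice, 51 cilia genes were tested and 5 rose from 3wk to 5wk (9.80%, against 6.24% of all genes called higher). The largest were Cfap46 (log2 fold change 2.15 ± 0.53, adjusted p = 0.028), Spag6l (1.76 ± 0.34, adjusted p = 0.012), both of the central pair, and Spag8 (1.39 ± 0.37, adjusted p = 0.035). The median of the 51 was 0.24 and that of 11 gastric epithelium genes 0.88. The call of Cfap46 was lost with the replicate block (adjusted p = 0.072) and without untreated 5wk mouse 5 or untreated 3wk mouse 1, 2, 3 or 5 (adjusted p 0.054 to 0.070). That of Spag8 was lost without a filter on low counts (adjusted p = 0.053), with the block (0.084) and without untreated 5wk mouse 1, 4 or 5 or untreated 3wk mouse 1, 2, 4 or 5 (0.059 to 0.092). The call of Spag6l held in each of these fits. The count of called genes moved with single mice, from 1 without untreated 5wk mouse 5 to 20 (15 higher and 5 lower) without untreated 5wk mouse 2. Without the other mice that changed it, the count was 3 (untreated 5wk mouse 1 or 3), 2 (untreated 5wk mouse 4 and untreated 3wk mouse 2 or 3) or 1 (untreated 3wk mouse 1 or 5).

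No listed cilia gene passed the test in edgeR for dual ICI minus untreated mice at 3wk, where 0.574% of all genes were called. Of the 49 tested, 7 had an unadjusted p under 0.05 (1658 of 15503 genes in all). DESeq2 called 5 cilia genes (502 of 16501 genes in all). None passed in edgeR or DESeq2 in anti-PD1, anti-CTLA4, uncured or all dual ICI mice against untreated 5wk mice, where 3, 0, 1 and 2 of them had an unadjusted p under 0.05 in edgeR and 0% of all genes were called. Over all genes the unadjusted counts were 128 for anti-CTLA4 and 1071 for all dual ICI mice, and DESeq2 called 0 and 46. Over all 5 dual ICI mice, the grouping that the labels alone give, Rsph1 had a log2 fold change of 2.21 ± 0.66 (adjusted p = 0.63) and Foxj1 -1.39 ± 1.24, and cured and uncured mice lay far apart in both. In 1 fit of all 29 libraries these were 1.41 (adjusted p = 0.13) and -3.37, and with the replicate block 1.79 (adjusted p = 0.41) and -3.42.

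Of the genes that mark tissues with motile cilia, those of airway and spermatids were at low levels, and those of ovary and oviduct were higher. The 4 airway secretory genes summed to 0.155 to 1.67 CPM over all libraries with Scgb3a2 at 0 in each, and the 6 spermatid genes to 0 to 0.465 CPM with Tnp1 and Acrv1 at 0. The 4 genes of ependyma and choroid plexus summed to 2.13 to 21.8 CPM with Otx2 at 0, and the 6 ovary genes to 11.0 to 33.8 CPM with Fshr at 0. The 4 oviduct genes summed to 15.2 to 34.0 CPM. Of this list, Ovgp1 was at 5.86 to 7.47 CPM in cured and 6.46 to 11.0 CPM in untreated 5wk mice. Pax8 was at 0 in the cured mice and at 0.610 to 3.26 CPM in untreated 5wk mice. Mesothelium genes (8) summed to 180 to 543 CPM in untreated 5wk and 64.4 to 221 CPM in cured mice, leukocyte genes (6) to 165 to 410 and 241 to 296 CPM, adipocyte genes (5) to 364 to 1736 and 703 to 1177 CPM, and liver and pancreas genes (6) to 30.2 to 155 and 1.50 to 3.43 CPM. Their part in the levels of the members was not tested.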

How the data were processed

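RNA of 29 mouse peritoneal samples was sequenced by the authors as 150 bp paired-end reads. The authors deposited unnormalized counts by gene symbol, with a column for every sample. The submitters' processing notes name STAR 2.7.0f and featureCounts 1.6.4 with mm10, whereas the study's methods name STAR with HTSeq, and strand handling was not given in the sources used here. Members and gene lists were chosen with earlier results of these data known. Groups came from the labels, with cure status from the study's mouse numbers.

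Counts were analysed in edgeR 4.0.16 (R 4.3.3): TMM scaling, filterByExpr by group, and the quasi-likelihood test on the libraries of each comparison, p-values adjusted by Benjamini-Hochberg across the genes of that fit, and a threshold of 0.05. Standard errors are the absolute log2 fold change divided by the square root of F. P-values measure the spread between mice. Fits were tested on simulated data. log2 CPM used a prior count of 2. Positions are from GENCODE on GRCm38, in which 95.8% of symbols matched. All 9 members were named, with, per comparison, the 3 cilia genes of largest change in each direction past the threshold, the 5 of highest level, and the 10 genes of highest rho. Same-numbered mice did not deviate together in every pair, so numbers were not used as pairs. Alternatives were DESeq2 1.42.0, upper-quartile scaling, no filter, 1 fit of all 29 libraries, a replicate block and leaving out each mouse.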

Additional observations from a re-analysis of the deposited data

Results flagged for a closer look

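Of 40 sets of 4 or 5 values of a member within a group, 3 held a mouse far from the others by Dixon's criterion, and chance flags about 1 in 20 sets. Rsph1 was 5.47 CPM in anti-PD1 mouse 5, whose nearest neighbour was at 1.64 CPM. Cfap43 was 3.31 CPM in dual ICI 3wk mouse 3, with the nearest at 2.22 CPM. Ccno was 0.126 CPM in anti-CTLA4 mouse 3, with the nearest at 0.243 CPM, a difference of 4 against 8 counts.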

How the results depend on the processing

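Counts of cilia genes called moved by over 1.5 times under 7 alternatives that kept all mice. With DESeq2 there were 5 for dual ICI minus untreated at 3wk (1 higher, 4 lower) and 13 for untreated 5wk minus 3wk. Over all genes, DESeq2 called 502 of 16501 in the first, where edgeR called 89 of 15503. In the second, DESeq2 called 3168 of 16974 and edgeR 1687 of 15604. With all 29 libraries in 1 fit there were 8 for untreated 5wk minus 3wk, 11 for all dual ICI minus untreated and 23 for anti-PD1 minus cured. With the replicate block there were 3 for untreated 5wk minus 3wk and 25 for anti-PD1 minus cured, and no other count moved by over 1.5 times under the block. Same-numbered mice shared only a number: their correlations ran from -0.65 to 0.64. The block could not be fitted for uncured minus cured mice, which share no number. For the other alternatives and the fits without 1 mouse, the share of all genes called is not given here. These shifts cannot be told apart from a general change in calls, and their cause was not tested.

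Leaving out 1 mouse at a time gave 1 to 20 called for untreated 5wk minus 3wk, 0 to 26 for anti-PD1 minus cured, 17 to 32 for cured minus untreated, 21 to 28 for anti-CTLA4 minus cured and 27 to 31 for uncured minus cured, and 0 in edgeR in the other comparisons, with 0 to 9 at an unadjusted p under 0.05. No called value changed sign under any alternative. Rsph1 in anti-PD1 minus cured mice passed the threshold with DESeq2 (-1.88, adjusted p = 0.027), in 1 fit of all libraries (-1.89, adjusted p = 0.017) and with the block (adjusted p = 5.1e-05). Tekt1 in anti-CTLA4 minus cured mice did not pass in 1 fit of all libraries (adjusted p = 0.070). A prior count of 0.5 lowered the mean log2 CPM of the members in every group, and 6 of the 10 genes most like them were shared with the ranking without the cured mice. Depth limits Ccno and Dnah5, at 0 to 13 counts, and the size of the Foxj1 change in cured mice.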
